A study of Homo sapiens with 22 samples.

Results

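Genes that write, maintain or erase DNA methylation were examined in TC-32 cells, an established Ewing sarcoma line that carries the fusion oncoprotein EWSR1::FLI1. They were DNMT1, DNMT3A, DNMT3B, UHRF1, TET1, TET2 and TET3, 7 of 20033 protein-coding genes in GENCODE release 44. For each gene, all peaks over the gene body and 10 kb to each side (hg38, positions counted from 1) were taken from 14 deposited peak lists. The siNEG arm had been reverse transfected with a control siRNA, and the siFLI1 arm with an siRNA directed at FLI1 to deplete the fusion, at 20 nM in each arm. Each arm had 2 ETS1 libraries, 2 H3K27ac libraries (a histone mark of active promoters and enhancers) and 2 H3K4me3 libraries (a mark of promoters). The H3K27ac libraries with the antibody label ab4729, 1 per arm, were kept apart, and 8 input libraries were not analysed here. All groups come from 1 cell line, the labels do not say whether replicates were separate transfections, and no list here measures FLI1 or the fusion, so the extent of depletion was not measured.

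DNA methylation at CpG sites is copied after replication by DNMT1, which UHRF1 recruits to hemimethylated DNA. DNMT3A and DNMT3B place methyl groups on unmethylated sites. The TET enzymes oxidise 5-methylcytosine, which opens the way to its removal. ETS1 and FLI1 are both ETS factors that bind a GGAA core, and the fusion also binds runs of GGAA units.

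The ETS1 lists held 302 and 208 peaks in siNEG and 1633 and 2635 in siFLI1. The H3K27ac lists held 60027 to 65501 peaks and the H3K4me3 lists 18344 to 19720. The ab4729 lists held 32738 peaks in siNEG and 51663 in siFLI1. The 2 siFLI1 ETS1 lists entered as 1 sample. Their summit heights differed by less than sampling noise (chi-square per degree of freedom 0.369 over 466 regions) and the peak names in the list of replicate 1 carry the number 2. The siFLI1 arm therefore has no replicate for ETS1. The histone pairs lay near counting noise, at 0.865 to 0.967 for summed heights of 50 to 100 tags and 1.08 to 1.24 above that. The 0.865, in siFLI1 H3K27ac over 13663 regions, was below noise (chi-square lower-tail p = 5.9e-32). Each histone pair still entered as 2 samples. The spread within a pair may be technical, so p-values that rest on it may be too small. All 8 Ewing sarcoma marker genes checked had both histone marks at a promoter in both siNEG lists, against 0 of 9 genes of other cell types, of which 6 had neither mark in either list.

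ETS1 peaks lay at the promoters of DNMT1, DNMT3A, DNMT3B and UHRF1 and at no TET gene. The 7 genes held 5 ETS1 regions, where a region joins overlapping peaks of the 4 lists. Gained regions are those in both lists of siFLI1 and in no siNEG list, and lost regions the reverse. Of the 5 regions, 2 were gained (at DNMT3B and DNMT1) and 0 were lost. Across all ETS1 regions 44% were gained and 0.0739% were lost. Of all protein-coding genes, 8.53% had a gained ETS1 region in the same kind of window and 0.015% a lost one, and the siFLI1 lists were the longer ones, so that 2 of 7 genes is a small count to read. When every list was reduced to its 208 peaks of lowest p, the DNMT1 region was no longer gained. The DNMT3B region was, which its high rank, a reason for choosing these genes, had fixed. A peak missing from a list fell short of that list's limit and is not a measure of no binding. The lowest summit heights listed were 14 and 13 tags in siNEG and 12 and 9 in siFLI1, where height is the number of tags stacked at the summit, recovered from the deposited fold and p.

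DNMT3B had the strongest of these peaks. It lay at chr20:32762048-32762526 and covered the transcription start site (TSS), running from the bases upstream of the gene into the gene. Its summit held 44 tags in siFLI1 replicate 1 and 46 in replicate 2, with no peak in either siNEG list. The authors' fold over local background was 12.4 and 17.7, rank 54 of 1633 and 44 of 2635 peaks in these lists. This peak is part of why the genes were chosen, so its height is given as a description.

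The second gained ETS1 region, chr19:10231029-10231582, lay at the most upstream TSS of DNMT1 (10231286, minus strand), which lies within 1 kb of TSSs of S1PR2, a sphingosine-1-phosphate receptor gene, and of MIR4322. Heights there were 23 and 21 tags in siFLI1, with folds of 6.96 and 8.97 and no siNEG peak. It lay away from the canonical DNMT1 promoter at 10194953, which had no ETS1 peak in any list, and it cannot be assigned to DNMT1 rather than S1PR2.

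At UHRF1, ETS1 peaks were listed in both arms. Its own promoter (chr19:4910025-4910537, after the canonical TSS, over further annotated start sites and partly over exons) was the only ETS1 region of the 7 genes present in all 4 lists. Summit heights were 20 and 26 tags in siNEG and 18 in each siFLI1 list, not scaled for depth. Folds were 6.15 and 6.60 in siNEG and 5.92 and 7.74 in siFLI1, so no order of the arms is read from them. The peak ranked 235 of 302 and 154 of 208 in siNEG. Within 10 kb beyond the gene, the promoter of KDM4B, a histone demethylase gene, had 23 tags in siNEG replicate 1, no peak in siNEG replicate 2, and 32 and 30 tags in siFLI1. The bases within 50 of its siFLI1 replicate 2 summit (chr19:4968821-4968921, plus strand) are shown because they hold no GGAA on either strand under a peak that ranked 158 of 2635 by fold.
KDM4B: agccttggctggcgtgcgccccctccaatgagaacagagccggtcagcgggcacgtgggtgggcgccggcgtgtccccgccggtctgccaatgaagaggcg
Of 1523 ETS1 summits in both siFLI1 lists, 65.4% had a GGAA core on either strand within such a window and 10.7% had CCGGAA, a fuller ETS motif also searched on both strands, against 64% and 12.3% of windows centred on canonical TSSs. A match describes letters and not a bound site. DNMT3A had an ETS1 peak in siFLI1 replicate 1 only, with 15 tags at an internal promoter (chr2:25252197-25252655), rank 1572 of 1633.

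**Figure D1:**
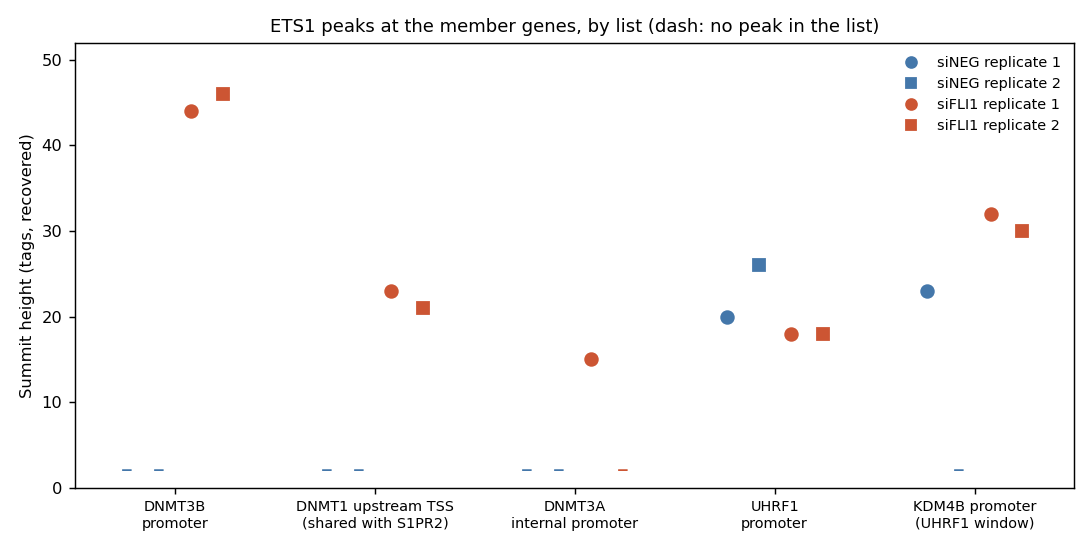
Summit height in recovered tags (y axis) of the 5 ETS1 regions at the 7 genes, 1 point per list and a dash where the list has no peak. The DNMT3B points, at 44 and 46 tags, were the highest, and UHRF1 is the only promoter with a point in all 4 lists.

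In siFLI1, H3K27ac peaks covered more of DNMT1 and UHRF1 and less of TET3. The 7 genes held 122 H3K27ac regions, of which 12 were gained at 4 genes (UHRF1 5, DNMT1 4, DNMT3A 2, TET1 1) and 4 were lost at 3 genes (TET3 2, DNMT3A 1, UHRF1 1). In the UHRF1 window, 1 gained region (chr19:4969193-4969740) lay at the KDM4B promoter, and the lost one (chr19:4965839-4966657) lay beyond the gene. With gene bodies only, 10 were gained and 3 lost. Where a call also required no peak within 1 kb in the other arm, 8 were gained and 0 lost, so each lost region had a siFLI1 peak close by. Of all H3K27ac regions 8.19% were gained and 4.86% lost. A gained region was found at 21.8% of protein-coding genes and a lost one at 12.6%, but these genes are longer than most, from 46.98 to 134.15 kb against a median of 27.47 kb, and a longer window holds more regions. All 7 promoters had H3K4me3 in all 4 lists, as did 62.7% of protein-coding genes, and their CpG observed-to-expected ratios ranged from 0.665 at TET1 to 0.933 at DNMT3A. The 7 genes held 18 H3K4me3 regions, 0 gained and 0 lost. Its backgrounds were 2.17% gained and 2.83% lost of all regions, and 2.58% and 4.58% of genes.

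The length covered by H3K27ac peaks at DNMT1 was 4605 and 6122 bp in siNEG and 14290 and 13325 bp in siFLI1, a mean of 5364 ± 1073 bp (SD, n = 2) against 13808 ± 682 bp (SD, n = 2). At UHRF1 it was 9226 and 6696 bp in siNEG and 18952 and 21133 bp in siFLI1. The groups did not overlap at either gene, and the siFLI1 mean was 2.57 and 2.52 times the siNEG mean, against 1.11 times for the whole lists. TET3 went the other way, with 10503 and 10643 bp in siNEG and 5144 and 6745 bp in siFLI1, 0.562 times. DNMT3A had 13560 and 15092 bp in siNEG and 16520 and 18364 bp in siFLI1, 1.22 times, without overlap, but the arms overlapped per Mb that each list covers (exact permutation p = 0.667, two-sided). TET2 values, 1722 and 1814 bp against 2224 and 1829 bp, differed by only 258.5 bp on average and also overlapped per Mb, and those of TET1 and DNMT3B overlapped. Each difference without overlap had an exact permutation p of 0.333 (two-sided), the smallest that 2 lists against 2 can give, so none can pass 0.05. The ab4729 lists, without replicates, gave 589 bp in siNEG and 4925 bp in siFLI1 at UHRF1. They gave 1062 and 1758 bp at DNMT1, and 1511 and 1310 bp at TET3. As a whole, the siFLI1 ab4729 list covered 1.66 times as much as the siNEG one. The ab4729 rise at DNMT1 was no larger than that, so this antibody shows no rise particular to DNMT1.

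**Figure D2:**
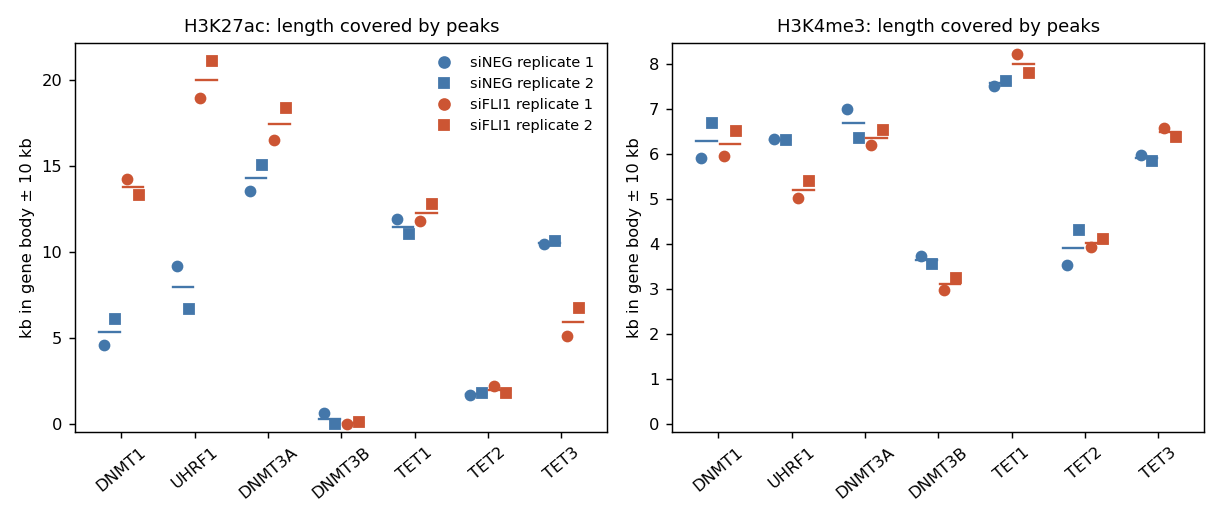
Length in kb covered by H3K27ac peaks (left) and H3K4me3 peaks (right) in the gene body and 10 kb to each side, 1 point per list with a line at each arm's mean. H3K27ac at DNMT1 and UHRF1 was longer in both siFLI1 lists than in both siNEG lists, and at TET3 shorter.

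Summit heights gave a second measure. For regions present in all 4 lists, log2 heights were compared with limma across every such region (22724 for H3K27ac, 12984 for H3K4me3), with Benjamini-Hochberg adjustment. Among all H3K27ac regions 15.2% were higher and 15.7% lower in siFLI1 at an adjusted p under 0.05 (3460 and 3579 regions, against 2569 and 1792 when lists were scaled by background tags). Of the 21 at the 7 genes 3 were higher and 1 was lower. For H3K4me3 the backgrounds were 17.1% and 16.7%, and of 12 regions 3 were higher and 2 lower. With so few regions, these counts show nothing particular to the 7 genes. This comparison was chosen after the data were seen.

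DNMT1, the maintenance methyltransferase, had the largest fall among these regions. At its canonical promoter (H3K27ac region chr19:10192065-10195018), the summit held 142 and 113 tags in siNEG and 54 and 52 in siFLI1. The log2 difference was -1.33 with an SE of 0.17 (limma, adjusted p = 2.9e-10). H3K4me3 at this promoter fell as well, from 504 and 533 tags to 387 and 345, a log2 difference of -0.52 with an SE of 0.08 (limma, adjusted p = 1.6e-09). In both marks every siFLI1 height lay below every siNEG height. The ab4729 summit there was 58 tags in siNEG and 38 in siFLI1. The 4 gained H3K27ac regions at DNMT1, which make up only part of the added covered length, were low, between 19 and 39 tags, with 3 in the gene and the tallest (39 and 37 tags, chr19:10237282-10238909) upstream of it.

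The upstream DNMT1 start site shared with S1PR2, where the gained ETS1 region lay, moved in the opposite direction to the canonical promoter in H3K4me3. Heights were 183 and 134 tags in siNEG and 208 and 218 in siFLI1, a log2 difference of 0.43 with an SE of 0.12 (limma, adjusted p = 0.0013). Without siNEG replicate 2 this difference was 0.19 with an adjusted p of 0.31 (limma), so that library decides the call. H3K27ac there reached the list only in siFLI1 replicate 1, with 19 tags, and in the siFLI1 ab4729 list, also with 19.

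UHRF1, the partner that brings DNMT1 to newly copied DNA, had taller H3K27ac summits inside the gene in siFLI1. Within 1 kb of its canonical TSS (4909501) the tallest H3K27ac summit held 77 and 64 tags in siNEG and 37 and 23 in siFLI1. In siFLI1 replicate 2 a further peak of 56 tags reaches into this stretch with its summit 2219 bp after the TSS, so 23 tags depends on how the peaks were split and no difference at the promoter is read from these heights. Summits 2148 to 2219 bp after the TSS held 25 and 24 tags in siNEG and 64 and 56 in siFLI1. About 6 kb into the gene, the tallest peak held 32 tags in each siNEG list, and 89 and 70 tags in siFLI1. The siFLI1 peaks there were also longer, running from 3231 to 8058 and from 2648 to 7913 bp after the TSS. The arms did not overlap at either of these places inside the gene. Because these peaks join into 1 merged region (chr19:4909405-4917559), its tallest summit, 77 and 64 against 89 and 70 tags, does not separate the promoter from the gene body and gave a log2 difference of 0.10 (limma, adjusted p = 0.72). In the ab4729 pair, the siNEG list had peaks only within 1 kb of the TSS, at 30 and 19 tags. The siFLI1 list had 16 and 25 tags there, lower at the first and higher at the second, and 9 further peaks up to 21323 bp into the gene.

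Farther along UHRF1, the intronic H3K27ac region chr19:4928851-4931925 rose from 22 and 19 tags to 38 and 33, a log2 difference of 0.72 with an SE of 0.25 (limma, adjusted p = 0.016). Leaving out siNEG replicate 1, siFLI1 replicate 1 or siFLI1 replicate 2 ended this call, with adjusted p-values of 0.051, 0.21 and 0.075 (limma), while the log2 difference was 0.69, 0.63 and 0.82. H3K4me3 at the UHRF1 promoter (chr19:4909036-4912729) fell from 304 and 315 tags to 243 and 256, a log2 difference of -0.33 with an SE of 0.09 (limma, adjusted p = 0.002). In the whole window H3K4me3 covered 6319 and 6294 bp in siNEG and 5009 and 5388 bp in siFLI1. This total also holds the H3K4me3 peaks at the KDM4B promoter (chr19:4968945-4971695), so it does not measure the UHRF1 promoter alone. DNMT1 and UHRF1 were the 2 genes with an H3K4me3 region lower at an adjusted p under 0.05 (limma), in each case the region at the canonical promoter.

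**Figure D3:**
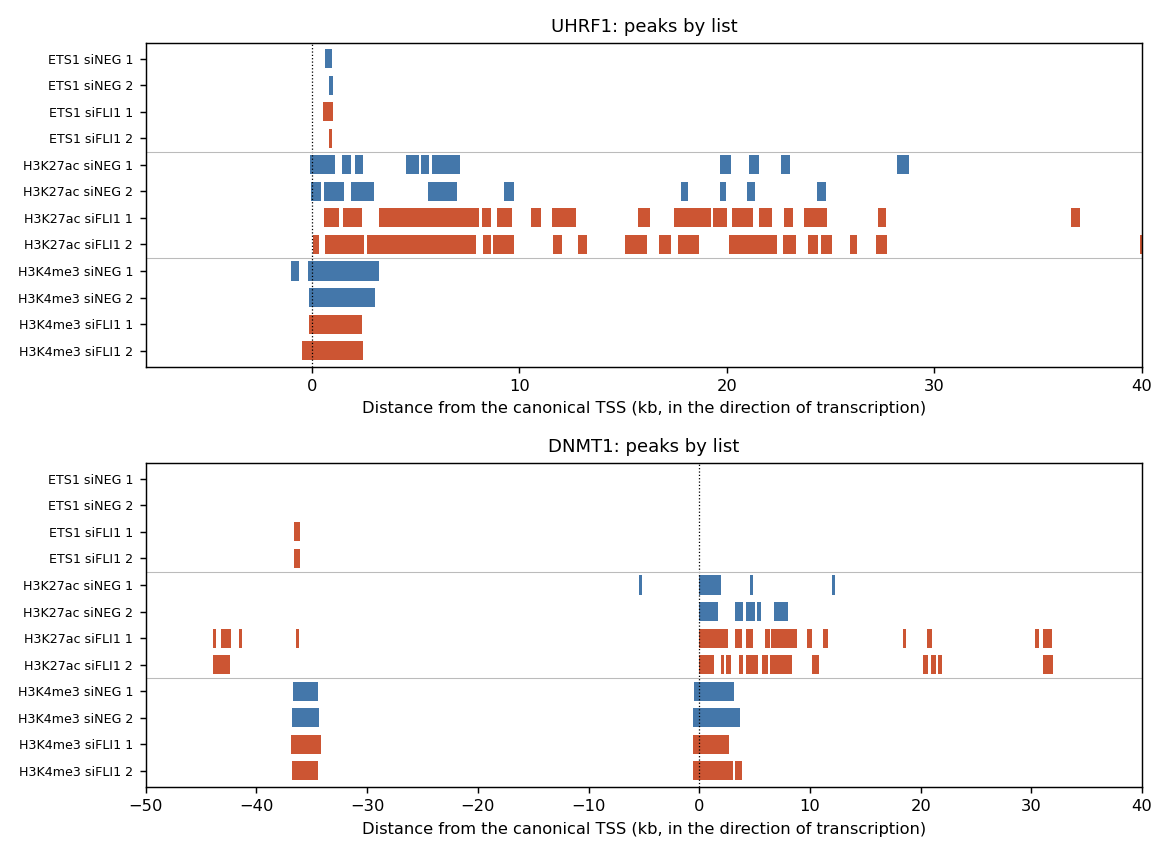
Peaks of the 12 lists of ETS1, H3K27ac and H3K4me3 along UHRF1 and DNMT1, as bars at their distance in kb from the canonical TSS (dotted line), in the direction of transcription. At UHRF1 the siFLI1 H3K27ac bars fill the first stretch after the promoter, and at DNMT1 the siFLI1 ETS1 bars lie at the upstream start site.

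**Figure D4:**
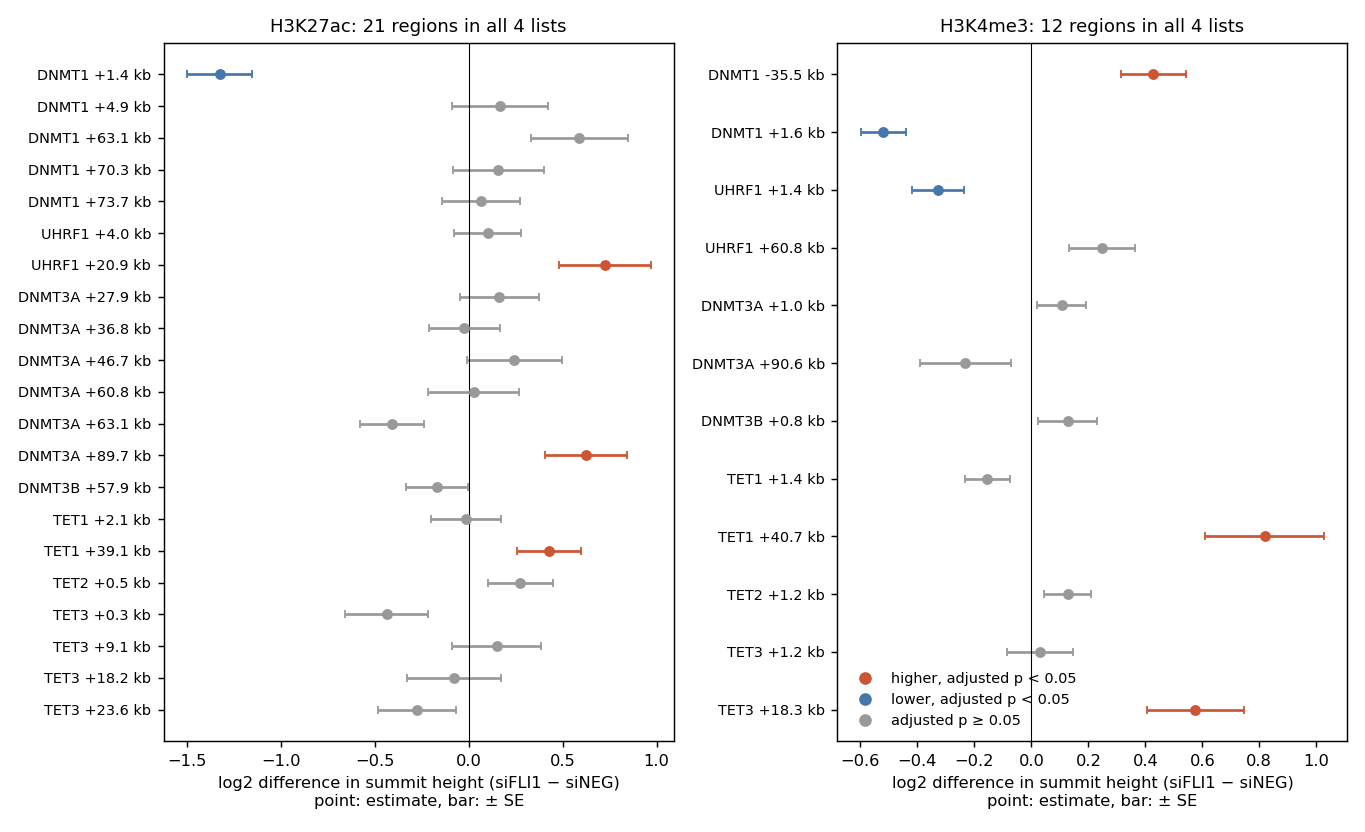
Log2 difference in summit height, siFLI1 minus siNEG (x axis, point with its SE), for the 21 H3K27ac and 12 H3K4me3 regions present in all 4 lists, labelled by gene and distance of the region's centre from the canonical TSS. The DNMT1 promoter stands lowest in both panels, and the TET1 intronic region highest in H3K4me3.

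DNMT3B, an enzyme of de novo methylation, combined its ETS1 peak with H3K4me3 and without H3K27ac. H3K4me3 at the promoter held 210 and 220 tags in siNEG and 228 and 247 in siFLI1, a log2 difference of 0.13 with an SE of 0.10 that did not pass the test (limma, adjusted p = 0.35). The length that H3K4me3 covered there went the other way without overlap, with 3734 and 3553 bp in siNEG and 2986 and 3241 bp in siFLI1, 0.855 times against 0.934 times for the whole lists (exact permutation p = 0.333, two-sided). In the gene body alone the arms overlapped, with a mean difference of -313.5 bp (exact permutation p = 0.667, two-sided). No H3K27ac peak lay within 1 kb of a DNMT3B TSS in any of the 6 H3K27ac lists. The nearest ones were 2 peaks of 17 and 26 tags in siNEG replicate 1, starting 2429 and 3888 bp after the TSS. The only H3K27ac region in all 4 lists within its window belonged to the MAPRE1 promoter at the far edge. Of 12552 genes with H3K4me3 in all 4 lists, 1542 (12.3%) had no H3K27ac peak at a TSS in 6 lists. Among the 1178 genes with an ETS1 region gained at a TSS, 40 (3.4%) had none, DNMT3B among them. Genes were also compared by the percentile of the highest fold of a promoter peak in each of the 14 lists. Those most like DNMT3B were HOOK1 (distance 27.73), SEMA6B (29.61), GABBR1 (30.34), KIF16B (32.53) and KCNH2 (40.65). Low H3K27ac promoter peaks were listed at HOOK1 in siNEG replicate 2, GABBR1 in siFLI1 replicate 1 and KCNH2 in siFLI1 ab4729 (percentiles 15.8, 13.5 and 4.3). KCNH2 also had an ETS1 peak in siNEG replicate 1.

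DNMT3A, the other de novo enzyme, has a full-length promoter and an internal one. At the internal promoter (chr2:25251133-25253381), where siFLI1 replicate 1 had its weak ETS1 peak, H3K27ac held 44 and 24 tags in siNEG and 60 and 46 in siFLI1. The log2 difference was 0.62 with an SE of 0.22 (limma, adjusted p = 0.019), and without siNEG replicate 2 it was 0.32 with an adjusted p of 0.35 (limma). It was 0.44 with an adjusted p of 0.32 without siFLI1 replicate 1 (limma). At the full-length promoter (TSS 25341925) an H3K27ac region was gained, with 24 and 39 tags in siFLI1 and none listed in siNEG. Neither ab4729 list had a peak there. H3K4me3 there held 307 and 308 tags in siNEG and 326 and 344 in siFLI1 (log2 difference 0.11, limma, adjusted p = 0.35). The tallest H3K27ac summit of the gene, in an intron at chr2:25277395-25280307, held 133 and 94 tags in siNEG and 86 and 91 in siFLI1 (log2 difference -0.41, limma, adjusted p = 0.057).

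Among the erasers, no region fitted at a canonical promoter passed the test. The H3K27ac region fitted at TET1 (chr10:68560296-68564601, log2 difference -0.01, limma, adjusted p = 0.97) has its tallest summits beyond 1 kb of the TSS and does not measure the promoter itself. Within 1 kb the siFLI1 lists had summits of 39 and 26 tags and the siNEG lists none, while in both siNEG lists a peak with its summit farther off reached into that stretch, so no difference is read there. The ab4729 summits were 20 tags in siNEG and 16 in siFLI1. TET1 held 488 and 465 H3K4me3 tags in siNEG and 430 and 435 in siFLI1 (log2 difference -0.16, limma, adjusted p = 0.12). TET2, a frequent target of mutation in blood cancers, had 1 region of each mark, both at its promoter. Its H3K27ac summit held 113 and 76 tags in siNEG and 104 and 133 in siFLI1 (log2 difference 0.28, limma, adjusted p = 0.23), with overlapping arms. Its H3K4me3 summit held 345 and 407 against 427 and 401 tags, also overlapping (log2 difference 0.13, limma, adjusted p = 0.22). At the canonical TET3 promoter the H3K4me3 heights, 178 and 185 against 181 and 194 tags, overlapped. At the canonical TET3 promoter H3K27ac held 53 and 33 tags in siNEG and 30 and 35 in siFLI1, also overlapping (log2 difference -0.44, limma, adjusted p = 0.13).

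The TET regions that passed the test lay inside the genes. In a TET1 intron (chr10:68596181-68602774) H3K27ac summits, in tags after median scaling of the lists, were 93.7 and 85.6 in siNEG and 113 and 129 in siFLI1, a log2 difference of 0.43 with an SE of 0.17 (limma, adjusted p = 0.043). This call was lost on leaving out siNEG replicate 2 or either siFLI1 library (adjusted p 0.11, 0.11 and 0.36, limma) and on scaling by background tags (adjusted p = 0.25, limma), while the log2 difference was 0.36, 0.53, 0.33 and 0.52 in these fits. H3K4me3 in the same intron, a mark more often found at promoters, held 45 and 34 tags in siNEG and 76 and 64 in siFLI1. Its log2 difference of 0.82 with an SE of 0.21 was the largest rise among the 12 H3K4me3 regions (limma, adjusted p = 0.00064), and it was 0.67 with an adjusted p of 0.077 without siFLI1 replicate 1 (limma). No annotated TET1 start site lay within 1 kb of it. Both runs of at least 4 GGAA units in the 7 windows were in TET1 introns, 1 of 4 units and 1 of 14 units (chr10:68622167-68622222). The nearest H3K27ac regions lay 1120 and 4343 bp from them, and none of the ETS1, H3K27ac or H3K4me3 regions at the 7 genes had such a run within 1 kb.

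At TET3, H3K4me3 rose on an internal start site. H3K27ac on that start site (chr2:74002775-74003477) held 29 and 22 tags in siNEG and 21 and 30 in siFLI1, with overlapping arms (log2 difference -0.08, limma, adjusted p = 0.85). Both lost H3K27ac regions, chr2:74003566-74004332 (23 and 24 tags in siNEG) and chr2:74011388-74012172 (21 and 24 tags), lay in introns 853 and 8675 bp from the TSS at 74002713, and neither was lost where no siFLI1 peak within 1 kb was allowed. The H3K4me3 region on that TSS (chr2:74002330-74004120) held 71 and 70 tags in siNEG and 98 and 115 in siFLI1. The log2 difference was 0.57 with an SE of 0.17 (limma, adjusted p = 0.0037), and 0.49 with an adjusted p of 0.11 without siFLI1 replicate 2 (limma). The taller H3K27ac region between the lost ones, chr2:74005983-74011111, held 52 and 42 tags in siNEG and 42 and 39 in siFLI1 (log2 difference -0.28, limma, adjusted p = 0.33).

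**Figure D5:**
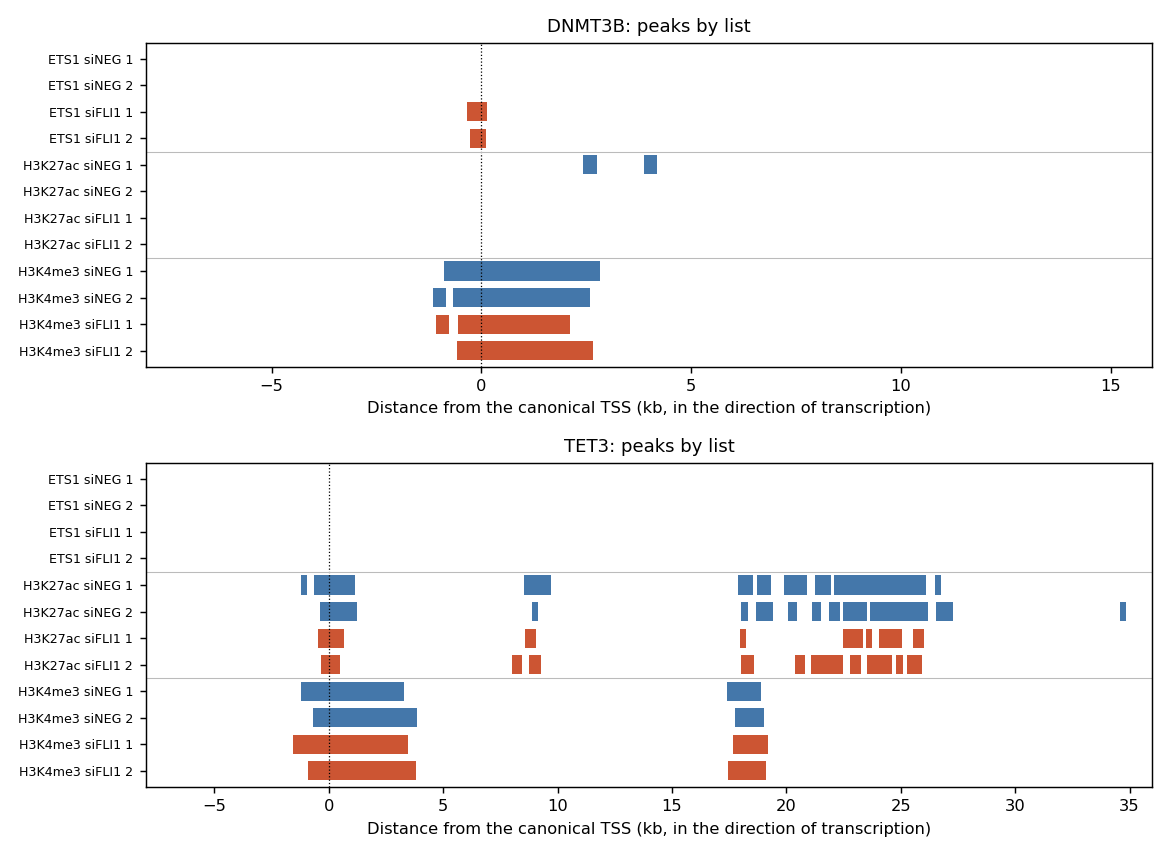
Peaks of the 12 lists of ETS1, H3K27ac and H3K4me3 along DNMT3B and TET3, as bars at their distance in kb from the canonical TSS (dotted line). DNMT3B had ETS1 bars in siFLI1 alone and H3K4me3 bars in all 4 lists, and at TET3 the siFLI1 H3K27ac bars together covered less length than the siNEG ones.

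The wider DNA methylation pathway was read in 34 further genes, grouped as readers, excision and repair genes, partners and regulators, and methyl donor or cofactor genes. ETS1 regions lay at an own TSS in both siFLI1 lists for 6 of them, 5 of which were gained. Over all protein-coding genes these shares were 7.67% and 5.88%, so with 34 genes nothing particular to the pathway is read from the counts. Gained ones lay at the reader ZBTB4 and the stress genes GADD45A and GADD45B. Their folds ran from 4.70 at GADD45A to 9.30 at ZBTB4 in siFLI1. The region that was not gained, at CDCA7, whose product activates the chromatin remodeler HELLS, was in all 4 lists with folds of 51.3 and 36.2 in siNEG and 29.2 and 63.1 in siFLI1.

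Of 32 of these genes with an H3K4me3 region at a TSS in all 4 lists, 2 were higher and 7 lower in siFLI1, and of 27 with H3K27ac 5 were higher and 3 lower (limma, adjusted p under 0.05, tallest region at a TSS). Over all fitted regions 17.1% were higher and 16.7% lower in H3K4me3, and 15.2% and 15.7% in H3K27ac, and nothing particular to the pathway is read from counts this small. CDCA7 was lower in both marks, by a log2 difference of -1.09 with an SE of 0.18 in H3K27ac (limma, adjusted p = 3.2e-07) and -0.79 with an SE of 0.09 in H3K4me3 (limma, adjusted p = 1.7e-16). Among genes picked after their values were seen, HELLS was lower by -0.96 in H3K27ac and -0.38 in H3K4me3 (limma, adjusted p = 3.7e-06 and 1.6e-05), and the reader MBD3 by -0.73 and -0.37 (limma, adjusted p = 0.00027 and 7.5e-05). CXXC5, a CpG-binding protein, was higher by 1.06 and 1.07 at different start sites (limma, adjusted p = 4e-05 and 3.3e-15). The reader ZBTB38 was higher by 0.91 in H3K4me3 (limma, adjusted p = 1.8e-07). TRDMT1 was higher by 0.84 in H3K27ac (limma, adjusted p = 6.6e-05), with H3K4me3 at -0.21 (limma, adjusted p = 0.23). IDH1, which makes the TET cofactor 2-oxoglutarate, rose in H3K27ac by 0.58 (limma, adjusted p = 0.018) and also gained an H3K27ac region at a TSS, as did GADD45B and MAT2A, the S-adenosylmethionine synthase gene. XRCC1, a base excision repair gene, lost an H3K4me3 region at a TSS, while its main H3K4me3 region stood at 0.00 (limma, adjusted p = 0.98). ZBTB4 and MAT2A were lower in H3K4me3, by -0.36 and -0.31 (limma, adjusted p = 0.00024 and 0.00047).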

How the data were processed

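Chromatin immunoprecipitation peak lists, 1 per library, were used as deposited. Per the submitters' processing notes, cutadapt 4.4, BWA 0.7.17, Picard 2.17.11 and MACS2 2.1.1 were used, with hg38 among the builds named; which control each list used is not given in the sources used here. The deposited fold column is the authors' ratio of a summit over local background. The −log10 columns, as deposited, hold a p-value and a q-value for every peak, and the deposited score column was not used. These values describe and rank peaks within a list only. The antibody label of the ab4729 libraries also names the catalogue number of the other H3K27ac antibody. A peak's presence depends on how well a library was enriched.

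Only the chromosomes 1 to 22, X and Y were used. The 4 lists of an antibody were merged where intervals shared at least 1 bp. Tag heights were solved from fold and p with the MACS2 formulas and came out whole for 97.99% to 100% of peaks per list (within 0.005 plus 0.0005 of the value in −log10 p) and for all 444 peaks at the 7 genes. Library depth was not stated. Covered length was compared by exact permutation tests over libraries. Heights were fitted with limma 3.58.1 (R 4.3.3) after median scaling; ETS1 was not fitted, since its siFLI1 lists were counted as 1 sample. P-values measure only the spread between these libraries. Scripts were tested on simulated data. A promoter is a position within 1 kb of a TSS of GENCODE release 44. All 7 genes are described; of the 34 pathway genes, those with ETS1 in both siFLI1 lists or a gained or lost region at a TSS are named by rule, except for items that are not reported here. The members and lists were chosen with earlier results of these data known. Alternatives tried were a −log10 q of at least 5, equal numbers of peaks, 50% overlap, absence within 1 kb, windows of 0 and 50 kb, a replicate block, scaling by background tags and leaving out each library.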

Additional observations from a re-analysis of the deposited data

How the results depend on the processing

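The gained ETS1 count of 2 was 1 with equal numbers of the strongest peaks, and 2 to 3 without single libraries. The gained H3K27ac count of 12 was 17 to 34 without single libraries (30 and 34 without siFLI1 replicates 1 and 2). The lost H3K27ac count of 4 was 2 at a −log10 q of at least 5, 0 where no peak within 1 kb was allowed in the other arm, and 5 to 20 without single libraries (20 and 17 without siNEG replicates 1 and 2). The H3K4me3 count of 0 gained was 0 to 1 (1 without siNEG replicate 1), and that of 0 lost was 0 to 2 (2 without either siNEG library and 1 without siFLI1 replicate 1) and 2 with 50 kb windows. With 1 list in an arm a call needs fewer lists, so these counts can grow by construction. Of heights, the 3 higher H3K27ac regions became 0 to 2 (0 and 1 without siFLI1 replicates 1 and 2) and the 1 lower 1 to 2 (2 without siNEG replicate 2); the 3 higher H3K4me3 regions became 2 to 3 and the 2 lower stayed 2. Over all regions, the 3460 higher and 3579 lower in H3K27ac became 2569 and 1792 with background scaling, 1979 and 2283 without siFLI1 replicate 1, and 1996 and 2387 without siFLI1 replicate 2. The 2225 higher and 2174 lower in H3K4me3 became 1425 and 1476, and 1365 and 1476, without siFLI1 replicates 1 and 2. In these fits the lone library is assumed to vary like the others. With a replicate block these 4 counts (3, 1, 3 and 2) did not move. The replicate numbers did not pair the lists, as their deviations correlated by 0.028 for H3K27ac and -0.026 for H3K4me3.

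The mean covered length, siFLI1 minus siNEG, changed sign in some settings; the arms overlapped in the main setting in each such case except H3K4me3 at TET1. Per Mb of list it was -5.86 bp for H3K27ac at TET1, and 8.54 and 2.73 bp for H3K4me3 at DNMT1 and DNMT3A. With 50 kb windows it was 1277 bp for H3K27ac at DNMT3B and -718 bp for H3K4me3 at TET1. Without single libraries it ranged from -593.5 to 66.5 bp for H3K27ac at DNMT3B. For H3K4me3 it ranged from -455 to 328 bp at DNMT1, from -640 to 4 bp at DNMT3A and from -278 to 505 bp at TET2. The cause was not tested.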
